A study of Rattus norvegicus with 6 samples.

Results

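The T cell and NK cell genes were 10 genes that mark and arm lymphocytes: the CD3 chains Cd3e, Cd3d and Cd3g, the co-receptors Cd4 and Cd8a, the kinase Lck, the cytotoxic granule genes Nkg7, Gzmb and Prf1, and the NK receptor gene Klrb1. They were taken by gene name, each name had 1 row, and they are 10 of 22050 annotated genes in the table. RNA was sequenced from rat subchondral bone, the bone plate under the joint cartilage with its marrow spaces, in 6 libraries, whose titles are S10, S12 and S13 and S20, S21 and S23. By its design text, the study was meant to compare rats kept in the cold with rats kept at normal temperature, but the labels used here give none of the libraries a temperature, treatment, strain, sex or age. All 6 were therefore left without a group, no effect of cold was tested, and levels are given library by library. The labels do not say whether separate animals stand behind them.

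T cells carry an antigen receptor that signals through the CD3 chains, whose tails are phosphorylated by Lck, a kinase held at the co-receptors CD4 and CD8. Helper T cells carry CD4 and most killer T cells carry CD8, and in rats macrophages and monocytes also carry CD4 and many NK cells carry the CD8 alpha chain. Killer T cells and NK cells store perforin and granzymes in lytic granules, of which NKG7 is a membrane protein. Marrow holds few mature lymphocytes beside its large pools of red cell and granulocyte precursors. In bulk tissue, fewer cells of a type and less RNA per cell cannot be told apart.

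The CD3 genes are shown first with the sequence before their starts, because they neighbour each other in the order Cd3g, Cd3d, Cd3e in the RefSeq gene table and had their highest levels in the same libraries, and Nkg7 is shown as the most abundant of the 10. Of the 10 genes, 9 had a promoter in the RefSeq table, and the one without was Cd4. Each line is the 250 bases before the annotated start, written 5′ to 3′ along the gene's strand, from build GRCr8, which is the build of the sequence table and not shown to be that of the expression values. Capitals mark the ETS core GGAAGT and the RUNX core TGTGGT, read on both strands, so that a match to the opposite strand reads ACTTCC or ACCACA. The windows are chr8:54211771-54212020 on the minus strand for Cd3e, chr8:54185269-54185518 on the plus strand for Cd3d, chr8:54183919-54184168 on the minus strand for Cd3g and chr1:102981247-102981496 on the plus strand for Nkg7.
Cd3e: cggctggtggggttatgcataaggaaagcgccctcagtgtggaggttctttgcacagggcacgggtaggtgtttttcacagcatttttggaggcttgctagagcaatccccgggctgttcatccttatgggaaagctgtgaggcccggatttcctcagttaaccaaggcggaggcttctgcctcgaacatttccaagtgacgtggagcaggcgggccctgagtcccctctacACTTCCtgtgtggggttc
Cd3d: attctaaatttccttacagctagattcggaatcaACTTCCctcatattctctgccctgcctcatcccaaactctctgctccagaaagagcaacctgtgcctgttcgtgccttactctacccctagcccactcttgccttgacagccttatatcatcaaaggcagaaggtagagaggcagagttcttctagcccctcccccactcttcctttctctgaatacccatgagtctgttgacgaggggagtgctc
Cd3g: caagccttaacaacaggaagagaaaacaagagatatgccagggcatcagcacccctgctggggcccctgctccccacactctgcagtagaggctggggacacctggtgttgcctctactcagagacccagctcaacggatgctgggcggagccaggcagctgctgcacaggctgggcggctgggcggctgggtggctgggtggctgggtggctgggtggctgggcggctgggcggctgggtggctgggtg
Nkg7: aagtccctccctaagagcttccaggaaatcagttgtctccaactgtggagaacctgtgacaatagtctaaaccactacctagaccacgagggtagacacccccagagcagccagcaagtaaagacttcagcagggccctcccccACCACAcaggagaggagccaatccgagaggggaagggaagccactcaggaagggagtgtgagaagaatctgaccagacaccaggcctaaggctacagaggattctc
Cd3e held 1 ETS core, starting 18 bases before the start, and Cd3d held 1, starting 216 bases before it. Cd3g held neither core, and Nkg7 held 1 RUNX core, starting 106 bases before the start. Of 33469 promoter windows of the same length, 19.2% held the ETS core and 14.5% the RUNX core. The E-box CANNTG matched once in Cd3e, in 2 places each in Cd3g and Nkg7 and not in Cd3d, against 65.5% of all windows with a match, and TATAAA matched in none of the 4 windows, against 12.9% of all windows. A match describes letters only. The lettered windows and the levels below were not tested against each other.

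Total counts were 39990624 to 59200981 per library. Globin rows took 10.4% (S23) to 27.6% (S10) of the counts, and S10 was low for many genes: of 11625 annotated genes whose median reached 1 FPKM (fragments per kilobase, which the authors scaled by library size), 60.1% were lowest in S10. Long transcripts in particular were low in S10, with a median deviation of -0.66 log2 units in the longest of 20 length bins, where S20 had 0.50. In the bin that holds Cd3d and Cd3g the deviation was 0.14 in S10 and -0.25 in S20. The part of globin share and length in the results below was not tested beyond the rescaled values given. TMM factors, which scale by the bulk of genes, were 0.747 in S10 and 0.966 to 1.15 in the others, so TMM raises every S10 value.

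In order of median FPKM the genes ran Nkg7 (240), Cd4 (19.6), Cd3g (9.29), Cd8a (5.95), Lck (4.80), Cd3e (3.32), Cd3d (2.67), Gzmb (1.75), Prf1 (0.750) and Klrb1 (0). FPKM is a value per length, so levels can be set beside each other between genes. Nkg7 stood above Cd4, and Prf1 above Klrb1, in 6 of 6 libraries. The steps from Cd4 to Cd3g, Cd3g to Cd8a, Cd8a to Lck, Lck to Cd3e and Cd3e to Cd3d each held in 5 of 6 libraries, and the steps from Cd3d to Gzmb and Gzmb to Prf1 in 4 of 6, so these neighbours overlapped in their spread. The median reached 1 FPKM for 8 of the 10 genes, against 52.7% of all annotated genes. The median level over the 10 was 4.06 FPKM, beside 1.40 FPKM over all annotated genes. A range of at least 1 log2 unit over the libraries, on the log2(FPKM + 1) scale, was reached by 5 of the 10, all of them among the 8, against 36.6% of the 11625 annotated genes above. These 5 were Gzmb (1.88), Cd4 (1.83), Cd3g (1.496), Cd8a (1.18) and Cd3d (1.11). Nkg7 (0.999), Lck (0.99), Cd3e (0.95) and Prf1 (0.93) lay just under that limit, so the count moves easily. It was 3 without S20. Under other scalings it was higher, from 6 with length correction to 8 with FPKM brought to a common sum.

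**Figure D1:**
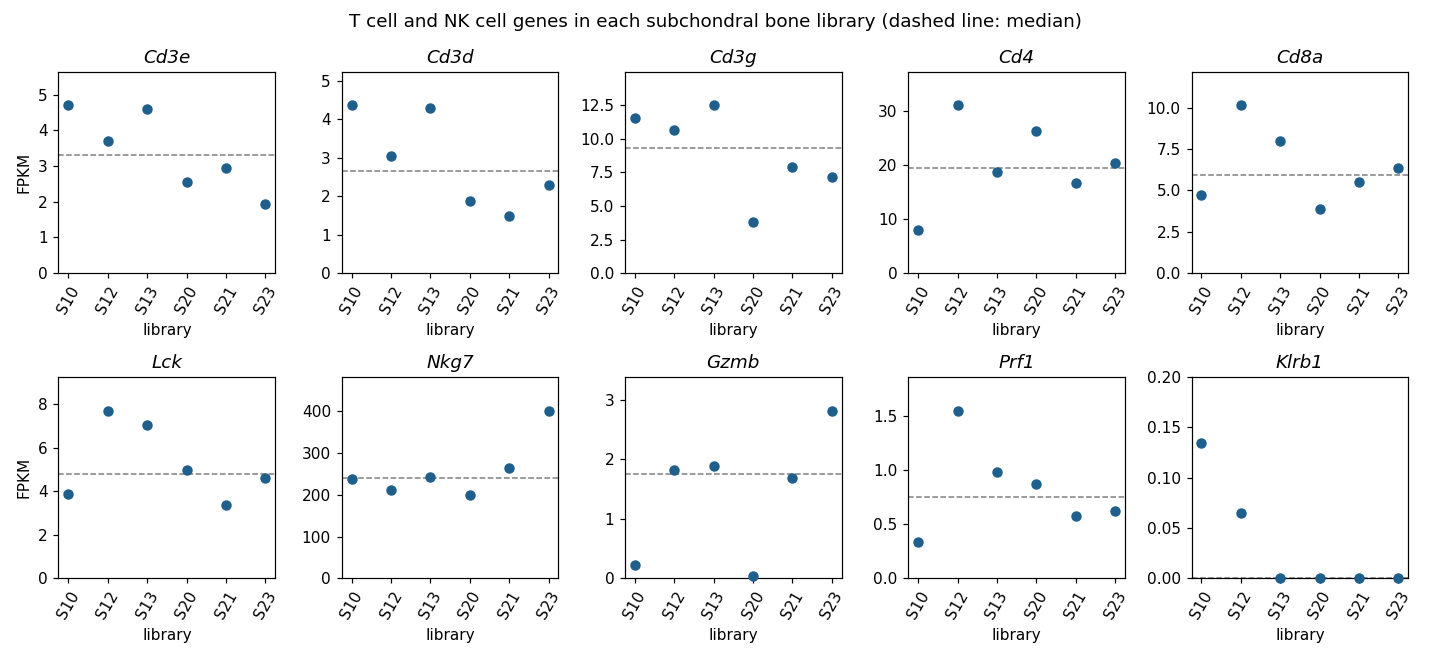
FPKM of each of the 10 T cell and NK cell genes (vertical axes, each from 0) in the 6 libraries (horizontal axes), with the median as a dashed line and 1 point per library. The 3 CD3 genes are highest in S10, S12 and S13, Nkg7 stands out in S23 at 402 FPKM, and Gzmb is near 0 in S10 and S20.

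The CD3 chains were detected in every library, and all 3 were highest in the same 3 libraries. Cd3e (ENSRNOG00000016069), the epsilon chain shared by all CD3 pairs, had 4.70 FPKM in S10, 4.60 in S13, 3.70 in S12, 2.93 in S21, 2.57 in S20 and 1.95 in S23. Cd3d (ENSRNOG00000015994), the delta chain, had 4.36 FPKM in S10, 4.28 in S13, 3.04 in S12, 2.30 in S23, 1.86 in S20 and 1.48 in S21. Cd3g (ENSRNOG00000015945), the gamma chain, had 12.5 FPKM in S13, 11.5 in S10, 10.7 in S12, 7.89 in S21, 7.19 in S23 and 3.78 in S20. For each chain the 3 highest values were those of S10, S12 and S13, and a different library was lowest: S23 for Cd3e, S21 for Cd3d and S20 for Cd3g. These values rest on 123 to 332 counts for Cd3e, 60 to 182 for Cd3d and 105 to 454 for Cd3g. The highest and lowest values lay outside each other's counting error: Cd3e had 6.38 CPM (counts scaled to library size) in S10 (95% exact Poisson interval 5.62 to 7.21), against 2.66 in S23 (2.21 to 3.17). Such intervals cover counting error only, and not the variation between animals or preparations. Whether counting used the strand is not given, and overlap of reads between the neighbouring CD3 genes was not tested.

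The sum of the 3 CD3 genes was 21.4 FPKM in S13, 20.6 in S10, 17.4 in S12, 12.3 in S21, 11.4 in S23 and 8.21 in S20, a range of 1.28 log2 units. S20 stayed lowest under all 6 scalings, while the highest library moved from S13 to S10 under TMM scaling (27.6 FPKM in S10), median-ratio scaling (27.7) and with the globin rows left out of the total (28.5). Without S20 the range was 0.85 and S23 was lowest. The chains did not keep a fixed proportion: Cd3g stood at 2.70 times Cd3e in the median library, at 1.47 times in S20 and at 3.69 times in S23. Cd3d stood at 0.874 times Cd3e in the median library, from 0.506 in S21 to 1.18 in S23. Ratios within a library do not depend on the factor for its total, but length correction changes them. Without S20 the ratio of Cd3g to Cd3e ranged 1.50-fold, in place of 2.51-fold.

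**Figure D2:**
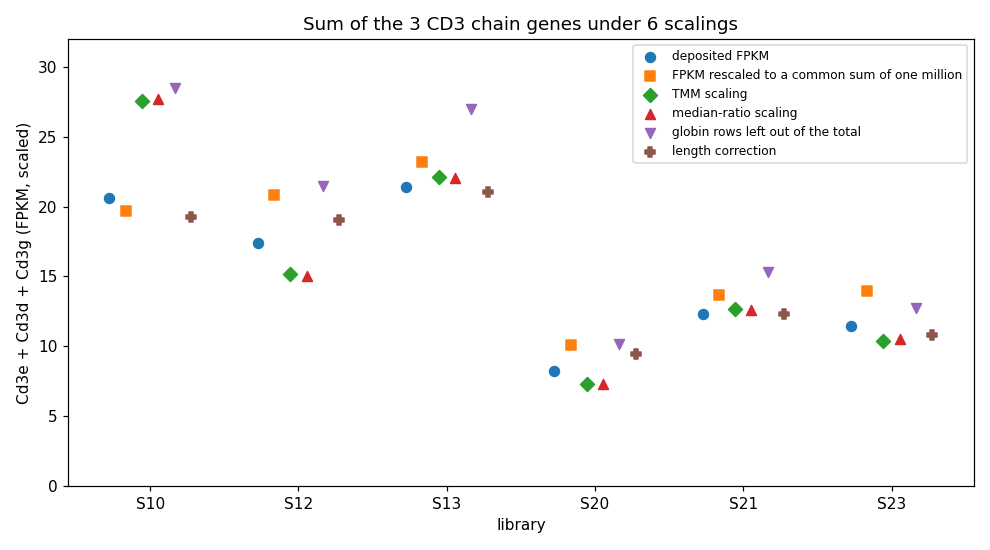
Sum of Cd3e, Cd3d and Cd3g (vertical axis, FPKM after the scaling named) in the 6 libraries (horizontal axis), with 1 symbol for each of 6 scalings. S20 is lowest under every scaling shown, and the S10 value moves most, between 19.2 FPKM with length correction and 28.5 FPKM with the globin rows left out.

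Among the other genes of the receptor complex, Cd247, the zeta chain, ranged from 1.01 FPKM in S21 to 2.80 FPKM in S13, and its ratio to Cd3e from 0.234 in S10 to 0.608 in S13. Ptcra, the pre-receptor chain of thymic T cells, and Trat1, an adaptor of the complex, had medians of 0.307 and 0.143 FPKM. The receptor constant genes Trac, Trbc1 and Trbc2 had no row under those names and are not analysed here. B cell genes had their highest values in some of the same libraries, and their part in the CD3 values was not tested: Cd79b, part of the antigen receptor of B cells, stood at 83.6 FPKM in S12, 77.1 in S13, 67.2 in S10, 36.0 in S20, 26.2 in S21 and 20.3 in S23. The B cell list summed to 57.3 FPKM in S21 and 176 FPKM in S12. The ratio of Cd3e to Cd79b ranged from 0.0443 in S12 to 0.112 in S21. Mature B cell gene Ms4a1 (CD20) was likewise highest in S12 (20.99 FPKM) and lowest in S23 (2.93 FPKM), whereas the pre-B cell genes Vpreb1 and Igll1 were highest in S20, at 44.2 and 57.0 FPKM.

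Cd8a and Lck shared their highest library, S12. Cd8a (ENSRNOG00000007178), the alpha chain of CD8, had 10.1 FPKM in S12, 7.96 in S13, 6.39 in S23, 5.52 in S21, 4.75 in S10 and 3.91 in S20. Lck (ENSRNOG00000009705), the kinase that starts receptor signalling, had 7.71 FPKM in S12, 7.04 in S13, 4.98 in S20, 4.63 in S23, 3.86 in S10 and 3.38 in S21. S12 and S13 were thus the 2 highest libraries for both genes, and S10, which was high for the CD3 chains, was below the median for both in the deposited FPKM. Under TMM scaling S10 was above the median for both, at 6.36 FPKM for Cd8a and 5.16 FPKM for Lck, as it was under median-ratio scaling and, for Lck, with length correction. Lck was highest in S13 with length correction and under TMM and median-ratio scaling. The ratio of Cd8a to Cd3e ran from 1.01 in S10 to 3.28 in S23, and that of Lck to Cd3e from 0.821 in S10 to 2.38 in S23. Cd8b, the beta chain found with the alpha chain on killer T cells, varied less (1.82 to 2.76 FPKM), and Cd8a stood at 2.03 times Cd8b in S20 and at 4.08 times in S12.

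Cd4 (ENSRNOG00000016294), the helper T cell co-receptor, had 31.1 FPKM in S12, 26.5 in S20, 20.3 in S23, 18.8 in S13, 16.8 in S21 and 8.04 in S10. It was lowest in S10, where Cd3e was highest, and second highest in S20, where the CD3 sum was lowest. The ratio of Cd4 to Cd3e accordingly ranged from 1.71 in S10 to 10.5 in S23, a 6.11-fold spread that was 2.55-fold without S10. The ratio of Cd4 to Cd8a ranged from 1.69 in S10 to 6.77 in S20, a 3.998-fold spread that was 1.88-fold without S20. Macrophage genes, which belong to cells that carry CD4 in rats, were measured beside it. All 9 macrophage list genes had a row, the median of 8 reached 1 FPKM, 6 of these 8 were highest in S12 (26.6% of the 11625 genes) and 5 lowest in S10 (60.1%), and the list summed to 445 FPKM in S20 and 682 FPKM in S12. The scavenger receptor gene Cd163 was lowest in S10 (6.80 FPKM) and highest in S12 (24.7 FPKM), with 18.5 FPKM in S20 as its next value and 10.98 to 14.6 FPKM in S13, S21 and S23. The ratio of Cd4 to Cd163 ranged 1.54-fold, from 1.18 in S10 to 1.82 in S23. The ratio to Csf1r, the receptor for the macrophage growth factor M-CSF, ranged 1.57-fold, and those to Mrc1, Adgre1 and Cd68 ranged 1.81-fold, 2.24-fold and 2.85-fold. The ratios to the complement genes C1qc, C1qb and C1qa ranged 4.08-fold, 4.12-fold and 5.61-fold, and 1.94-fold, 1.78-fold and 1.97-fold without S10. These macrophage ratios were chosen after the values were seen, and the part of macrophages in the Cd4 level was not tested. C1qa, which is made by macrophages, went another way, with its highest value (225 FPKM) in S10 and its lowest (125 FPKM) in S23. Without S10 the range of Cd4 was 0.85 log2 units.

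By a fixed measure of likeness, the root mean square distance between profiles of log2(FPKM + 1) each centred on its own median, the 5 genes most like Cd4 among 9172 candidates were Sprtn, Rapgef1, Cyb5d1, Jade2 and Zscan22. Their distances were 0.0415 to 0.0773 log2 units. Each was lowest in S10 and highest in S12, as Cd4 was, which a choice by likeness favours. In that order the 8 macrophage genes spread widely, with Cd163 at 792, Csf1r at 866, Mrc1 at 2398, Adgre1 at 3119, Cd68 at 5551, C1qc at 6742, C1qb at 6778 and C1qa at 7972. The T cell genes Lck, Cd8a and Cd3e ranked 5495, 6395 and 8158, so macrophage genes lay on both sides of Lck. Being lowest in S10 was common, as the 60.1% above shows, so the rank is a description of these 6 libraries. The 5 nearest genes had medians of 2.23 FPKM (Jade2) to 4.78 FPKM (Rapgef1), beside 19.6 FPKM for Cd4. The 1 added before the logarithm narrows the changes of such low genes. Jade2, for example, ran from 0.507 to 4.15 FPKM, and Cd4 from 8.04 to 31.1 FPKM. The ranks under a smaller added value were not measured.

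**Figure D3:**
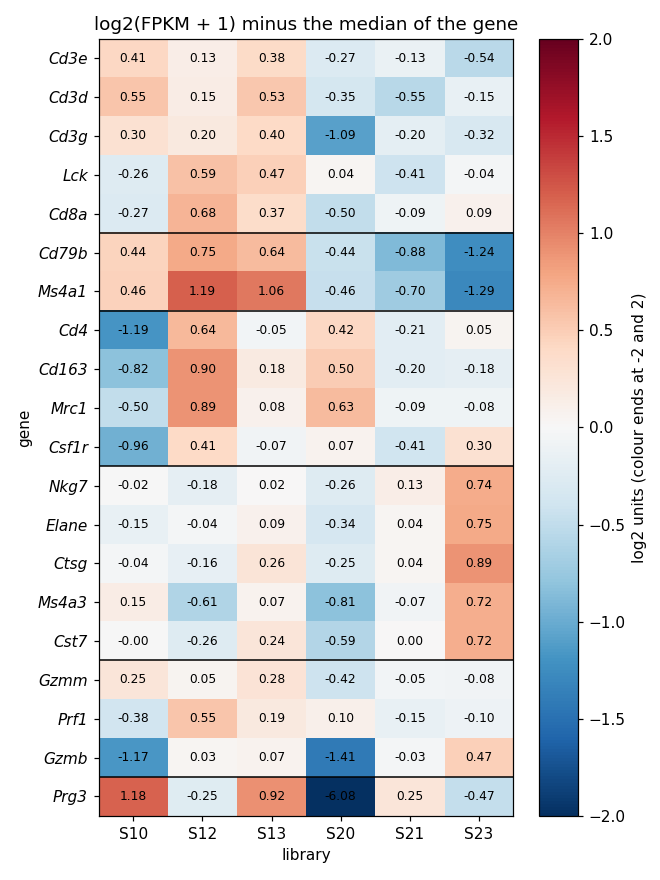
Difference of log2(FPKM + 1) from each gene's own median (colour and number in each cell) for 20 genes (rows) in the 6 libraries (columns). Rows run from T cell genes through B cell genes, Cd4 with macrophage genes, and Nkg7 with granulocyte precursor genes and Cst7. Other lytic granule genes and the eosinophil gene Prg3 follow. Nkg7 and Elane read 0.74 and 0.75 in S23, and Gzmb reads -1.41 in S20.

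Nkg7 was by far the most abundant of the 10 genes. Nkg7 (ENSRNOG00000017749) had 402 FPKM in S23, 264 in S21, 243 in S13, 238 in S10, 212 in S12 and 200 in S20, and its median exceeded that of 98.6% of annotated genes. S23 stood above the other 5, which lay within 0.39 log2 units of each other in the deposited FPKM. Under TMM scaling the 5 were wider apart, from 178 FPKM in S20 to 318 FPKM in S10, beside 365 FPKM in S23. It lay far above perforin and the granzymes: Nkg7 stood at 137 to 702 times Prf1 and at 30.5 to 66.7 times Gzmm, a granzyme of NK cells and innate-like T cells. Granulocyte precursor genes were measured beside it. In that list the median of all 5 genes reached 1 FPKM, all 5 were highest in S23 (24.0% of the 11625 genes) and 3 of 5 lowest in S20 (17.1%), and the list summed to 2317 FPKM in S20 and 4767 FPKM in S23. The 6 late neutrophil genes that reached a median of 1 FPKM were likewise all highest in S23, with 4 of the 6 lowest in S20, and that list summed to 16902 FPKM in S20 and 73928 FPKM in S23.

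Elane, the neutrophil elastase gene, had 1016 FPKM in S23, 642 in S13, 619 in S21, 586 in S12, 543 in S10 and 476 in S20. The ratio of Nkg7 to Elane ranged 1.21-fold, from 0.362 in S12 to 0.438 in S10. Its ratios to the other 4 granulocyte precursor genes ranged 1.27-fold (Ctsg), 1.498-fold (Prtn3), 1.65-fold (Ms4a3) and 1.87-fold (Mpo). Among genes of the cytotoxic granule list the ratio ranged 1.48-fold for Cst7, 2.19-fold for Gzmm (1.44-fold without S23) and 5.13-fold for Prf1 (3.07-fold without S12). The 5 genes most like Nkg7 by the same measure were Trim13, Cystm1, Tpmt, Anxa3 and Sri, at distances of 0.0596 to 0.0787 log2 units, all lowest in S20 and highest in S23. Of the 5 granulocyte precursor genes, Elane ranked 12 of 9172, Ctsg (cathepsin G) 35, Prtn3 243, Mpo 1160 and Ms4a3 1251. Cst7, which was placed in the cytotoxic granule list, ranked 195, ahead of Prtn3, Mpo and Ms4a3. Among the macrophage genes Cd68 ranked 946, ahead of Mpo and Ms4a3, and the others ranked from 5632 (C1qb) to 8430 (Cd163). Among the T cell genes Cd8a ranked 4956, Lck 6327 and Cd3e 7012. These ratios and ranks were chosen after the values were seen, and which cells carried the Nkg7 or the Cst7 transcripts was not tested. Nkg7 was lowest in S10 instead of S20 with FPKM brought to a common sum and with length correction, and highest in S23 under all 6 scalings.

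The killing genes proper were low. Prf1 (ENSRNOG00000000562), the pore-forming perforin, had 1.55 FPKM in S12, 0.988 in S13, 0.876 in S20, 0.623 in S23, 0.575 in S21 and 0.339 in S10, from 38 to 187 counts. S12 was highest, S10 lowest, and without S12 its range was 0.57 in place of 0.93 log2 units. Gzmb (ENSRNOG00000049976), the granzyme that triggers death of the target cell, had 2.82 FPKM in S23, 1.88 in S13, 1.81 in S12, 1.69 in S21, 0.223 in S10 and 0.0363 in S20. It was lowest in S20 and S10, with 3 and 15 counts, and had 135 to 227 counts in the other 4 libraries. In CPM, S20 had 0.0737 (95% exact Poisson interval 0.0152 to 0.215) and S23 had 4.91 (4.29 to 5.59). Prf1 did not share this gap in S20, and the ratio of Gzmb to Prf1 was 0.0414 in S20, 0.657 in S10 and 4.52 in S23.

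A related row, Gzmbl2, had a gap in the same 2 libraries, with 9 counts in S10 and 20 in S20 against 154 to 260 in the others. Another, Gzmbl3, had 0 counts in S10 and 7 in S20, but also only 6 in S23, where Gzmb was highest. Gzmbl1 had 2 counts at most in any library. Reads of near-identical granzyme genes may be split between rows, so the values of Gzmb and these related rows are uncertain. Of 5 eosinophil genes, 4 were lowest in S20 (17.1% of the 11625 genes), the exception being Ccr3, which was lowest in S23. Prg3, a granule protein of eosinophils, had 5.06 FPKM in S20 and 295 to 930 FPKM elsewhere. Prg3 was highest in S10, where the Gzmb value was low. The summed eosinophil list ran from 118 FPKM in S20 to 5184 FPKM in S10. The basophil and mast cell list was lowest in S12 (164 FPKM summed) and highest in S23 (549 FPKM). The part of either cell type in the Gzmb level was not tested.

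Klrb1 (ENSRNOG00000057410) was at the limit of detection, with 4 counts in S10, 2 in S12 and 0 in S13, S20, S21 and S23. A count of 0 allows up to 3 counts, which is 0.0507 to 0.0737 CPM in those 4 libraries, and the upper ends of their 95% exact Poisson intervals are 0.0623 to 0.0906 CPM. The RefSeq gene table gives this symbol the synonyms NKR-P1G and Klrb1g, and the rat NK marker NKR-P1A (CD161) is encoded by Klrb1a. Klrb1a was present in every library, at 5.45 FPKM in S21, 5.19 in S23, 4.80 in S13, 4.69 in S12, 4.08 in S10 and 3.51 in S20. Its range was 0.52 log2 units. Klrb1c had a median of 0.652 FPKM. The family members are close copies, so reads may be split or lost between them.

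The wider T cell and NK cell lists held 93 entries, of which 86 had a row and 49 reached a median of 1 FPKM, 57.0% of those with a row against 52.7% of all annotated genes. A range of at least 1 log2 unit was reached by 23 of the 49, against 36.6% in the background. S12 was the highest library for 16 of the 49 (26.6% of the 11625 genes), S23 for 13 (24.0%) and S13 for 11 (4.10%). S10 was the lowest for 22 of the 49, against 60.1% of the 11625, and S20 for 16 of the 49, against 17.1%. The lists were drawn up with earlier results of these data known.

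**Figure D4:**
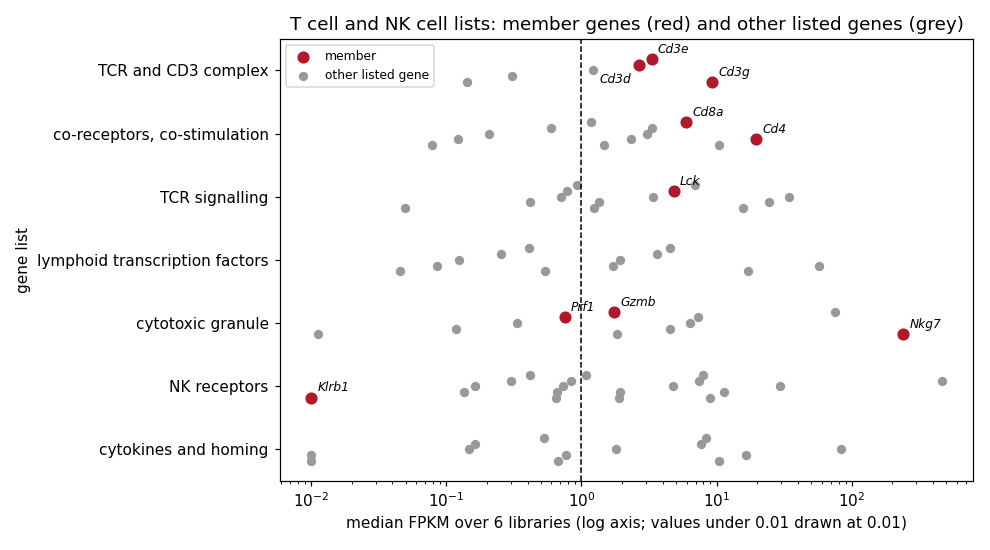
Median FPKM over the 6 libraries (horizontal log axis) for each listed gene with a row, in 7 gene lists (vertical axis), with the 10 member genes in red and other listed genes in grey; the dashed line is 1 FPKM. Nkg7 lies far to the right of the line, and the CD3 genes lie right of it, from Cd3d (2.67 FPKM) to Cd3g (9.29 FPKM). Prf1 lies just left of the line and Klrb1 at the left edge.

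Of 12 co-receptor and co-stimulation genes, 8 reached a median of 1 FPKM and are said below to have passed. Besides Cd4 and Cd8a these were Cd7 (10.5 FPKM), Cd2 (3.35), Cd6 (3.05), Cd8b (2.33), Cd5 (1.46) and Cd27 (1.18), surface molecules that tune T cell activation. Cd7 was lowest in S20 (6.20 FPKM) and highest in S23 (15.4 FPKM). The activation receptors Cd28, Icos, Ctla4 and Pdcd1 stayed under 1 FPKM in every library. Of 13 signalling genes, 8 passed. Apart from Lck these were Lcp2 (34.5 FPKM), Lat (24.6), Fyn (15.6), Prkcq (6.87), Ubash3a (3.40), Skap1 (1.34) and Zap70 (1.25). Lcp2, Lat and Fyn are adaptors and a kinase that myeloid cells, platelets or mast cells also use. Zap70, the kinase recruited to the CD3 tails, ranged from 0.852 FPKM in S20 to 1.69 FPKM in S13, while Themis, a gene of developing T cells, stayed at or under 0.105 FPKM.

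Among 12 lymphoid transcription factor genes, 6 passed: Id2 (56.8 FPKM), Zbtb7b (17.2), Runx3 (4.53), Lef1 (3.61), Tcf7 (1.95) and Ikzf3 (1.71). Tcf7, which encodes the T cell factor TCF-1, was highest in S12 (3.99 FPKM) and lowest in S10 (0.720 FPKM). Lef1, which is also used by pre-B cells, was highest in S20 at 10.7 FPKM, the library with the highest Vpreb1 and Igll1. The part of pre-B cells in the Lef1 level was not tested. Of the listed factors that did not pass, Tbx21 (T-bet), Gata3, Eomes and Foxp3 had medians of 0.539, 0.412, 0.124 and 0.0850 FPKM.

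Of 11 cytotoxic granule genes with a row, 7 passed. After Nkg7 came Cst7 (74.8 FPKM), Serpinb9 (7.29), Gzmm (6.41), Ctsw (4.55), Gzmk (1.84) and Gzmb. Cst7, which encodes cystatin F, was lowest in S20 (49.5 FPKM) and highest in S23 (124 FPKM), as Nkg7 was. Gzmm, Ctsw (cathepsin W) and Gzmk were highest in S13, at 7.96, 6.02 and 3.71 FPKM. Gzma, a granzyme of killer cells, had a median of 0.332 FPKM and 0 counts in S20. Fasl had no row under that name.

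Of 19 NK receptor genes with a row, 10 passed: Tyrobp (465 FPKM), Hcst (29.7), Fcgr3a (11.4), Ncr3 (8.99), Klrk1 (7.91), Cd226 (7.42), Klrb1a (4.75), Cd244 (1.94), Il2rb (1.88) and Ncr1 (1.09). Tyrobp and Hcst encode the signalling adaptors DAP12 and DAP10, which myeloid cells also use. Ncr1, which encodes the NK receptor NKp46, ranged from 0.503 FPKM in S10 to 1.74 FPKM in S23. Klrd1 (CD94) had a median of 0.661 FPKM. Of 13 cytokine and homing genes with a row, 6 passed, among them Il2rg (16.6 FPKM), Ccl5 (10.5), S1pr1 (7.64) and Cxcr3 (1.80). Ccl5, a chemokine of activated T and NK cells, stood out in S13 at 24.3 FPKM and lay between 7.00 and 12.9 FPKM elsewhere. Ifng, the interferon of activated T and NK cells, had 0 counts in all 6 libraries, and Il2 had 9 counts, all in S23.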

How the data were processed

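RNA-seq was done on 6 rat subchondral bone libraries. The authors deposited, per the file headers, a count and an FPKM per gene and library. The counts as deposited were whole numbers without normalization. The FPKM values deposited by the authors were not brought to a common sum. No label or header names the aligner or counter (not given in the sources used here). GRCm38 and mm10, both mouse builds, are named in the submitters' processing notes, but the row IDs are those of rat Ensembl genes, which leaves the build of the values unsettled. Of 30600 rows with values, 22050 were annotated, and 10 rows without values were left out. Total counts of 39990624 to 59200981 set the precision, with 95% exact Poisson intervals.

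No groups are labelled, so no test was run. Spread is the range of log2(FPKM + 1) over the libraries, which understates changes of low genes. Length is that implied by counts and FPKM. Members and lists were chosen with earlier results of these data known. Named were the 10 members, listed T and NK cell genes whose median reached 1 FPKM (at least 3 per list), up to 4 genes of each list of other cells, and the 5 genes nearest to Nkg7 and to Cd4 with a range of at least 0.5. Others were chosen after their values were seen. Some listed genes are not reported here. Alternatives used TMM factors (edgeR 4.0.16), median-ratio factors, a common sum, totals without globin rows, a pseudocount of 0.1 and leaving out each library. Length correction was added after seeing the data. Plots were made in Python 3.11.15.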

Additional observations from a re-analysis of the deposited data

How the results depend on the processing

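The number of genes whose median reached 1 FPKM was 8 under all 5 other scalings and without each library, 9 at a minimum of 0.1 FPKM and 10 with any count. The number with a range of at least 1 log2 unit was 5 in the deposited FPKM and higher under all 5 other scalings. It was 8 with FPKM brought to a common sum and 6 with length correction. Under TMM scaling, under median-ratio scaling and with globin rows left out it was 7 each time. It was 10 with a pseudocount of 0.1, and 3 to 5 when each library in turn was left out (3 without S20). The pseudocount acts by construction on low genes such as Prf1 and Klrb1. The range of the CD3 sum was 1.28, became 1.79 under both TMM and median-ratio scaling, where the cause was not tested beyond the factor of 0.747 in S10, and was 0.85 to 1.28 without each library. A single gene was counted as moved where its range changed by more than the standard deviation of its log2(FPKM + 1) over the libraries. Such genes were Cd3e under TMM and median-ratio scaling (1.40 and 1.39), Cd4 without S10 (0.85), Cd3g without S20 (0.72) and Nkg7 without S23 (0.39). Also moved were Prf1 without S12 (0.57), Klrb1 without S10 (0.09), and Gzmb, Prf1 and Klrb1 with a pseudocount of 0.1 (4.42, 1.91 and 1.23). No paired analysis was possible because the labels place no library in a group. Low counts limit the precision of Klrb1 in every library (4 counts at most) and of Gzmb in S10 (15 counts) and S20 (3 counts).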

Other observations

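Ccr7, the receptor that guides lymphocytes and dendritic cells to lymph nodes, had 2.95 FPKM in S12, 2.58 in S13, 1.10 in S10, 0.444 in S20, 0.423 in S21 and 0.292 in S23. Spib, a transcription factor of B cells and plasmacytoid dendritic cells, was highest in S12 at 63.9 FPKM and lowest in S23 at 8.80 FPKM. Siglech, a surface marker of plasmacytoid dendritic cells in mice, stayed between 0.262 and 0.669 FPKM and was highest in S23. The plasmacytoid dendritic cell list summed to 80.0 FPKM in S23 and 148 FPKM in S12. These values stand in no comparison.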
